A study of Mus musculus with 3 samples.

Results

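The LApcL library held 219 cell barcodes that carried Paneth cell transcripts and adenoma transcripts together. They made up 1.29% (95% interval 1.13 to 1.47) of its 16972 kept barcodes, and the 3 libraries of the series had 39227 kept barcodes in all. A barcode marks 1 droplet, and a unique molecular identifier (UMI) marks 1 captured transcript. A barcode was kept with 500 or more genes detected and at most 20% mitochondrial UMIs. The 219 members were chosen on the values of 3 genes: Defa24 took from 0.5% to under 5% of a barcode's UMIs, and Sox17 and Msx1 together gave 3 or more UMIs. The LApcL mouse carried Lgr5-CreERT2 together with Apc fl/fl and Lef1 fl/fl, the LApc mouse carried Lgr5-CreERT2 and Apc fl/fl, and the WT mouse is given no allele in the labels. All were C57BL/6, were 7 to 8 weeks old when given 2 doses of 2 mg tamoxifen, and were analysed at day 21 (WT and LApcL) or day 29 (LApc). The Cre is driven by Lgr5, so recombination starts in the crypt stem cells and reaches their descendants only. Small intestinal cells were sorted for EpCAM, an epithelial surface protein. Each genotype was 1 library, so there is no test between genotypes or between groups of barcodes. Intervals are exact 95% binomial or Poisson intervals and cover counting error only.

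Paneth cells sit at the base of the small intestinal crypt and secrete antimicrobial peptides, among them the alpha-defensins, lysozyme and angiogenin 4. They also supply stem cells with Wnt and Notch ligands, and their maturation itself needs Wnt signalling. Loss of Apc stabilises β-catenin, which acts with the TCF/LEF transcription factors to switch on Wnt target genes. Sox17 and Msx1 are transcription factors and S100g is a calcium-binding protein. Ghrelin, the product of Ghrl, is a peptide hormone of enteroendocrine cells.

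The members were set beside 2 groups of the same library. The high-Defa24 group held 257 barcodes with Defa24 at 5% or more of UMIs. The adenoma group held 9380 barcodes with Defa24 below 0.5% and 3 or more Sox17 and Msx1 UMIs. Since Defa24, Sox17 and Msx1 defined all 3 groups, their levels are not findings. Every gene of these barcodes moves with that choice, so each comparison between the groups is a description.

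The alpha-defensin genes differ in sequence by little within a subfamily, and this sets which of their levels can be told apart. Defa24 lies at chr8:21734494-21735471 (GRCm38, plus strand). The last 105 coding bases, stop codon included, are given 5′ to 3′ from the GENCODE vM21 transcripts for the defensins on which the results below turn. Capitals mark bases that differ from the first sequence of each subfamily, which are Defa24, AY761184 and Defa21.
Defa24: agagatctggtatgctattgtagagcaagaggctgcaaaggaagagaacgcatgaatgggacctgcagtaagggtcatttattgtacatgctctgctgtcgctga
Gm15284: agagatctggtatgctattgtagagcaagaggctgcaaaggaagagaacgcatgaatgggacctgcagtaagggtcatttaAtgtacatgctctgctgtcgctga
Defa26: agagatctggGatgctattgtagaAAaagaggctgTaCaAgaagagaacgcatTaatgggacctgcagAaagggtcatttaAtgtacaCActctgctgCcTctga
AY761184: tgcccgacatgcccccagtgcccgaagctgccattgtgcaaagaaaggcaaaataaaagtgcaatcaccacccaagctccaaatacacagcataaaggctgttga
Gm14851: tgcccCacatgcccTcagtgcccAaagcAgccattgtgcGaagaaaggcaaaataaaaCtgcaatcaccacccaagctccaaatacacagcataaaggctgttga
Defa21: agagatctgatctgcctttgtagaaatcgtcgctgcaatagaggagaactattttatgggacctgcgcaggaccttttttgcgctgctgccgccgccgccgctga
Defa22: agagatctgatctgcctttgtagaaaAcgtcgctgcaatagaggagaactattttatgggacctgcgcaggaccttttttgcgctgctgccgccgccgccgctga

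Gm15284 (chr8:21134642-21135598) differed from Defa24 at 4 of 282 coding bases. Defa22 (chr8:21162277-21163249) differed from Defa21 (chr8:21025545-21026516) at 2 of 282, and Gm14851 (chr8:21095074-21096050) from AY761184 (chr8:21702519-21703645) at 11 of 351. Reads of such near copies may be split or dropped in counting, so the split between members of 1 subfamily is uncertain. Between subfamilies the gap was wide: over the last 105 bases AY761184 differed from Defa24 at 79 positions and Defa21 at 40. The levels of Gm15284 beside Defa24, both of 1 subfamily, carry this uncertainty wherever they are given below.

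The 3 Paneth markers and the 3 adenoma markers of the members were all detected. Defa24 stood at 15937 CPM (UMIs per 1000000 UMIs, summed over the barcodes of a group) in the members, against 613 in the adenoma group and 230448 in the high-Defa24 group. Lyz1, lysozyme (chr10:117287797-117292868), stood at 3225 CPM (3153 to 3297), against 781 and 18651. Ang4 (chr14:51763878-51773590) stood at 727 CPM (693 to 762), against 30.3 and 9086. On all 3 Paneth markers the members lay between the groups, and nearer the adenoma group by difference in CPM. By ratio, Defa24 (log2 4.70 over the adenoma and -3.85 over the high-Defa24 group) and Ang4 (4.59 and -3.64) lay nearer the high-Defa24 group. Lyz1 (2.05 and -2.53) lay nearer the adenoma group by ratio too. Sox17 stood at 256 CPM against 338 in the adenoma group and 34.4 in the high-Defa24 group, and Msx1 at 320 against 350 and 28.5. S100g (chrX:162961992-162964599), which the rule did not use, stood at 3475 CPM (3400 to 3550) in the members, 4806 in the adenoma group and 493 in the high-Defa24 group.

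In depth the members lay below both comparison groups and above the other barcodes of their Defa24 range. Their median was 10139 UMIs (range 2906 to 25636), against 12350 in the adenoma group and 11153 in the high-Defa24 group. The 425 barcodes with intermediate Defa24 and under 3 Sox17 and Msx1 UMIs had a median of 6351. Of barcodes with adenoma transcripts, 22 had Defa24 at 10% or more, above the limit of the rule, and their median was 24298 UMIs. The median number of genes was 2884 in the members, 3303 in the adenoma group and 1838 in the high-Defa24 group. Scrublet, which scores each barcode against simulated doublets, put 45 members (20.5%, 15.4 to 26.5) in the top 13.9% of scores of the library, against 16.9% of the adenoma group and 3.89% of the high-Defa24 group. Without the barcodes in that top range, 174 members were left, 99 of them with 2 or more UMIs of Ghrl, a gene described below. The threshold that Scrublet set by itself marked 2.18% of barcodes, and none was removed for the main values. Of the member barcodes, 8 also occurred in the WT library and 3 in the LApc library (3.65% and 1.37%), against 1.66% and 1.81% of all kept LApcL barcodes.

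**Figure D1:**
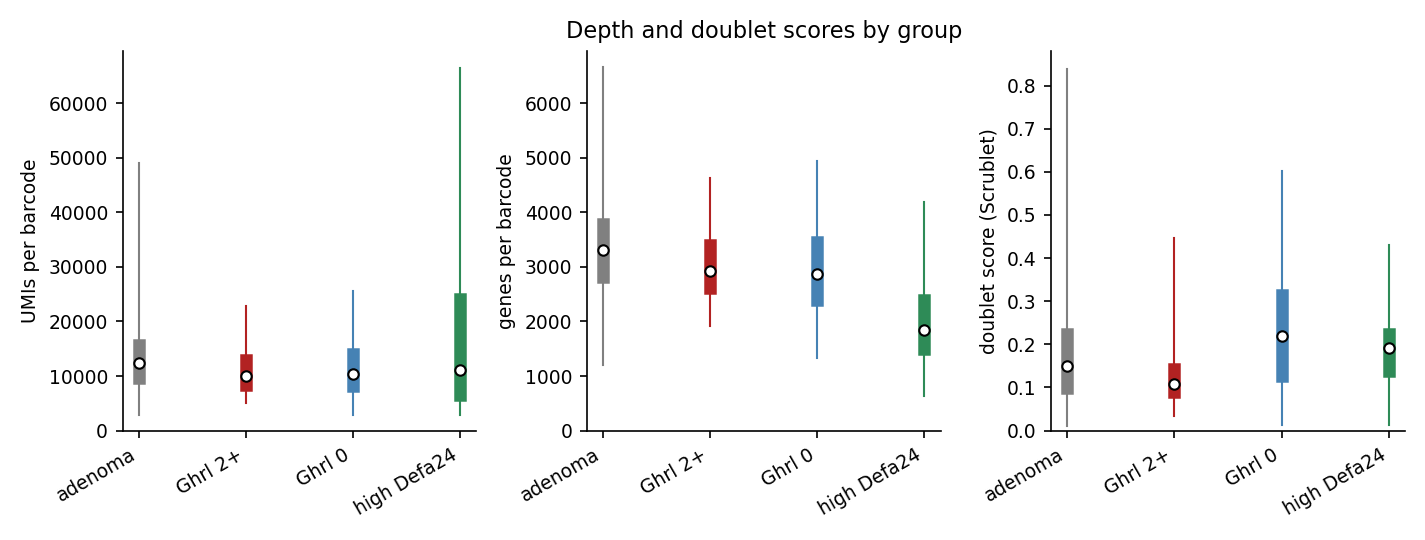
UMIs per barcode, genes per barcode and Scrublet doublet score (y axes) for the adenoma group, the members with 2 or more Ghrl UMIs, the members with 0 Ghrl UMIs, and the high-Defa24 group (x axis). Points are medians, thick bars the quartiles and thin lines the full range. Both sets of members had about 10000 UMIs at the median, and the median doublet score was 0.108 with Ghrl and 0.219 without.

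Lef1 and Apc, the deleted genes, were read first as a check of the labels. Lef1 gave 8 UMIs in the members, or 3.34 CPM (1.44 to 6.58), and 3.52 CPM (3.20 to 3.87) in the LApcL adenoma group. It gave 18.9 CPM (15.3 to 23.0) in the LApc barcodes of the same definition. Apc stood at 32.6 CPM (25.7 to 40.6) in the members, 37.1 in the LApcL adenoma group and 45.9 in the LApc one. The assay reads transcript 3′ ends, which may lie outside the deleted exons, so these levels do not by themselves show the state of either gene.

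Intermediate Defa24 was not particular to barcodes with adenoma transcripts. Of the 9630 LApcL barcodes with 3 or more Sox17 and Msx1 UMIs, 219 (2.27%, 1.99 to 2.59) had Defa24 from 0.5% to under 5%. Among barcodes with 2% or more enterocyte marker UMIs, 22 of 997 did (2.21%, 1.39 to 3.32). The share was 19.5% of 1430 barcodes with 3% or more goblet marker UMIs, 3.97% of 478 enteroendocrine barcodes and 3.00% of 500 tuft barcodes. These classes were cut from marker sums, and some barcodes fall in more than 1. The share in the adenoma class was close to that in the enterocyte class. Of these intermediate barcodes, 103 of 219 in the adenoma class and 0 of 22 in the enterocyte class had 2 or more Ghrl UMIs. So did 3 of 279 in the goblet, 5 of 19 in the enteroendocrine and 0 of 15 in the tuft class. In the enterocyte class of the other libraries 14 of 173 in LApc and 16 of 224 in WT did. In LApcL the median depth was 12302.5 UMIs in the adenoma class and 7546 in the enterocyte class. With Defa24 from 1% to under 5% of UMIs, these classes held 155 (1.61%, 1.37 to 1.88) and 11 barcodes (1.10%, 0.552 to 1.97).

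**Figure D2:**
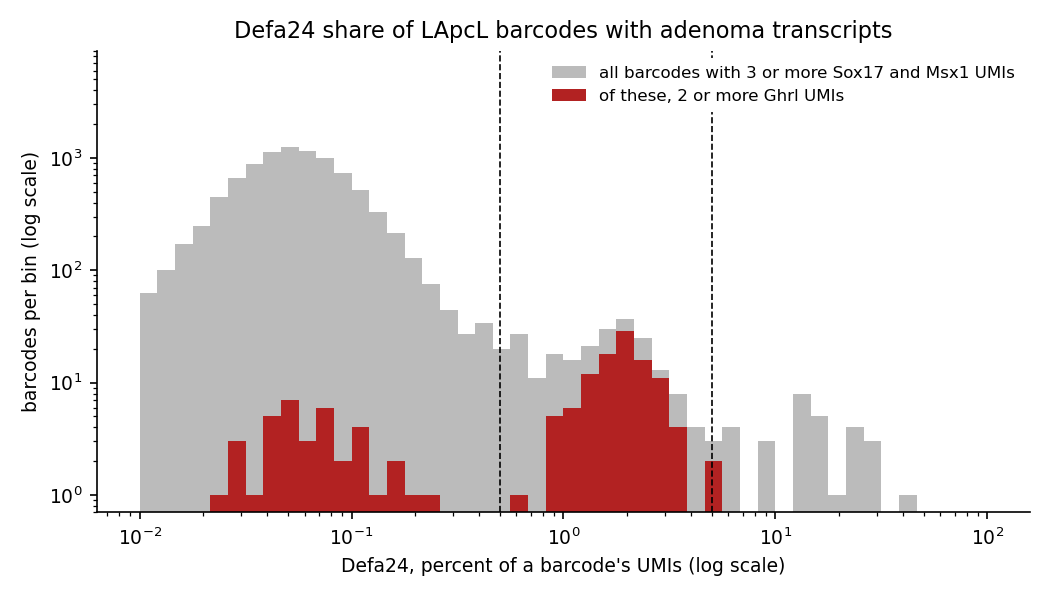
Number of LApcL barcodes with 3 or more Sox17 and Msx1 UMIs (y axis, log scale) by the share of their UMIs from Defa24 (x axis, percent, log scale), with barcodes of 2 or more Ghrl UMIs in red. Barcodes with under 0.01% Defa24 are not drawn. Dashed lines mark 0.5% and 5%, between which the 219 members lie, 103 of them with 2 or more Ghrl UMIs.

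The thresholds fell where barcodes were sparse but not absent. In bins of equal width on a log scale, barcodes with adenoma transcripts had a main peak below 0.1% Defa24 and a second, lower peak near 2%, at which most barcodes had Ghrl. Of barcodes with adenoma transcripts, 40 had Defa24 from 0.4% to under 0.5% and 18 from 0.5% to under 0.6%. Lyz1 stood at 2732 CPM just outside and 802 just inside. At the upper end 5 barcodes lay from 4% to under 5% and 4 from 5% to under 6%. By the other criterion, 54 barcodes of intermediate Defa24 had 2 Sox17 and Msx1 UMIs and 42 had 3, with S100g at 2443 and 3082 CPM. A further 245 had none of these UMIs, with S100g at 761 CPM and Tff3, a goblet cell trefoil factor, at 34985 CPM.

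Paneth secretory genes had most of the highest ratios over the adenoma group, though not most of the genes that differed. Of 5541 genes with 20 CPM or more in either group, 101 (1.82%) were over 2-fold higher in the members with an interval excluding no difference, and 11 (0.199%) were over 2-fold lower. In the list of 28 Paneth antimicrobial and granule genes, 21 of the 23 at that level were 2-fold higher and 0 were 2-fold lower. The list held Defa24 and the genes that vary with it, so its count follows from the choice of members. The median log2 ratio of the list was 3.96, against -0.11 over all genes tested. The genes with the highest ratios were Gm15315, AY761184, Defa26, Ghrl, Mptx2, Gm14851, Defa24, Defa17, Ang4 and Defa5. Apart from Ghrl, these are defensins, a pentraxin (Mptx2) and angiogenin 4, all made by Paneth cells. Ang4 and Defa17 were not particular to them. Per 100 Defa24 UMIs they gave 12.8 and 9.64 UMIs in 255 goblet barcodes of intermediate Defa24, and 3.94 and 4.31 in the high-Defa24 group. AY761184 went the other way, at 1.48 and 14.6.

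Among them AY761184, a cryptdin-related defensin, stood at 1921 CPM (1866 to 1977) in the members, 46.5 in the adenoma group and 33571 in the high-Defa24 group. Itln1, an intelectin that binds bacterial sugars, stood at 980 CPM, against 78.4 and 14256. Mmp7, the protease that activates pro-defensins, stood at 676 CPM, against 147 and 1789. Spink4, shared by goblet and Paneth cells, stood at 6297 CPM, against 396 and 29504. Reg3g, an antimicrobial lectin of enterocytes and Paneth cells, stood at 474, 322 and 830 CPM, a smaller difference than for the defensins. The whole Paneth list took 3.48% of UMIs in the members, 0.307% in the adenoma group and 59.8% in the high-Defa24 group.

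Several secretory regulators were higher too, with small counts. Of 8 such genes at 20 CPM or more, 4 were 2-fold higher than in the adenoma group and 0 were 2-fold lower, and the list median was 1.33. The interval lay above 0 for 7 and below 0 for 1, the Notch target Hes1, at 133 against 158 CPM. Atoh1, the factor that sets secretory fate, stood at 20.9 CPM (15.5 to 27.5), against 4.27 in the adenoma group and 33.9 in the high-Defa24 group. Spdef, which acts in goblet and Paneth maturation, stood at 24.2, 4.58 and 35.1 CPM. Creb3l1, a transmembrane transcription factor of the endoplasmic reticulum, stood at 40.9, 7.94 and 51.3 CPM. In the 425 barcodes with intermediate Defa24 and under 3 Sox17 and Msx1 UMIs, Spdef stood at 88.0 CPM and Creb3l1 at 128. The summed regulator list stood at 1002 CPM there, against 548 in the members, 391 in the adenoma group and 684 in the high-Defa24 group. Wnt3, the Wnt ligand made by Paneth cells, gave 32 UMIs in the members, or 13.4 CPM (9.14 to 18.9), against 2.84 and 31.2. Of the niche factors, Cd24a alone passed 20 CPM, at 442, 331 and 524 CPM. None of 17 genes of protein folding and secretory load differed 2-fold from the adenoma group, and their median was 0.19.

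The adenoma, Wnt and stem cell genes of the members stayed near the adenoma group. None of the 14 adenoma genes at 20 CPM or more, Sox17 and Msx1 of the rule among them, differed 2-fold, and their median log2 ratio was -0.25. The interval lay below 0 for 12 of the 14, so the levels were lower by less than 2-fold. Cd44, a Wnt target and surface receptor for hyaluronan, stood at 122 CPM (108 to 137) against 146. Axin2, a Wnt target that feeds back on the pathway, stood at 119 CPM (106 to 134) against 149, and 23.5 in the high-Defa24 group. Notum, a secreted enzyme that inactivates Wnt ligands, stood at 76.4, 98.8 and 20.1 CPM. Nkd1, another feedback inhibitor, stood at 122, 131 and 31.7 CPM. Of 11 stem cell genes 0 differed 2-fold. Lgr5, the stem cell receptor whose promoter drives the Cre, gave 13 UMIs, or 5.43 CPM (2.89 to 9.28), against 6.57 and 7.24. Tcf7 stood at 26.7 against 25.6 CPM and Tcf7l2 at 57.2 against 64.3. Cell cycle genes were slightly lower: 0 of 19 differed 2-fold, the median was -0.23, and 10 of 19 intervals lay below 0. Mki67, a marker of cycling cells, stood at 71.0 CPM (60.7 to 82.5) against 101 in the adenoma group and 16.7 in the high-Defa24 group.

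The 11 genes lower than in the adenoma group included the hormone genes Cck (log2 -1.49, -2.05 to -0.98) and Gip (-1.20, -1.45 to -0.96). They also included Il33, an alarmin cytokine (-1.44), Lgals1, a galectin (-1.36), and Ly6d (-1.27). Cck stood at 12.9 CPM against 36.3, and Gip at 58.0 against 133. Cck had a UMI in 27 of 219 members and 1183 of 9380 adenoma barcodes, and Gip in 91 and 3255. The share of barcodes with a UMI of either gene was thus not clearly lower in the members. The lower counts among the other genes, Senp1, Basp1, Pik3c2a, Col4a1 and Phlda2, gave log2 ratios from -1.16 to -1.03.

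Against the high-Defa24 group, where the Paneth list took 59.8% of UMIs, most other genes had a larger share of UMIs in the members. Of 5204 genes, 4624 (88.9%) were over 2-fold higher and 53 (1.02%) over 2-fold lower, and the median log2 ratio over all genes was 1.63. With the total taken without Paneth, ribosomal protein and mitochondrial genes, 804 were higher and 280 lower (74.2% of calls higher, against 98.9% above), and the median was 0.44. With TMM factors 95 were higher and 348 lower (21.4% of calls higher), and the median was 0.04. A change of the total moves all genes alike, so the lists are given relative to the median of all genes. The adenoma genes lay 0.75 above it, the Paneth list at -5.74 from it and the enterocyte markers at -0.03. The genes with the highest ratios were Ghrl, Aqp8, Tcaf1, Tcf7, Fads3, Car2, Pam, Mpzl3, Apoa2 and Msx1. Among the 10 lowest were Gm7849, which gave 0 UMIs in the members, Gm15299, Defa23, Defa22, Gm15284, Gm14851, Defa21, Gm21002 and Gm7861. Of these, Defa22 stood at 700 CPM against 26253, and Defa23 at 37.6 against 1555.

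The level of a gene in the members can be placed between the other groups. Its position is 0% at the level of the adenoma group and 100% at that of the high-Defa24 group, counted by difference in CPM and not by ratio. For the 53 genes with 50 CPM or more that were at least 4-fold higher in the high-Defa24 group, the median position was 8.25% (quartiles 4.23 and 32.2, range 1.19 to 87.4). For the 810 genes at least 4-fold higher in the adenoma group it was 16.2% (9.43 and 23.5). The first median was 17.1% with the total taken without Paneth, ribosomal protein and mitochondrial genes and 12.7% with TMM factors, and the second was 28.0% and 5.45%, so the positions depend on the scaling. Defa24, on which the groups were chosen, sat at 6.67% and AY761184 at 5.59%. The 53 genes did not share 1 position, and they included goblet genes, with Muc2 at 40.0% and Clca1 at 87.4%. In members with 2 or more Ghrl UMIs, a split described below, the quartiles of the 53 were 4.36 and 9.40. In members with 0 Ghrl UMIs they were 3.06 and 53.9.

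Goblet and enterocyte transcripts were also higher in the members than in the adenoma group. All 8 goblet markers were over 2-fold higher, with a median of 2.32. Muc2, the secreted mucin, stood at 622 CPM (591 to 654) against 111, and 1388 in the high-Defa24 group. Tff3 stood at 4586, 863 and 6768 CPM, and Zg16, a mucus lectin, at 2202, 791 and 2338 CPM. Of the members, 24 (11.0%, 7.15 to 15.9) had 3% or more goblet marker UMIs, against 1.59% of the adenoma group. All 9 enterocyte markers had intervals above 0, 2 of them over 2-fold, with a median of 0.75. Apoa1, an apolipoprotein of enterocytes, stood at 942, 464 and 246 CPM. Of 3 enteroendocrine markers at 20 CPM or more, Chga was 2-fold higher and Cck 2-fold lower, and of the tuft markers Avil alone was measured at that level (log2 -0.31). The immune markers summed to 3.34 CPM in the members, with 8 of 10 genes at 0 UMIs. The stromal and endothelial markers summed to 10.0 CPM, with 4 of 8 genes at 0. The part of the goblet and enterocyte transcripts in the other results was not tested.

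Beyond both groups, 89 of 5563 genes (1.6%) were over 1.5-fold higher in the members than in either, and 1 (0.018%) was lower than in both. The farthest above both were Ghrl, Aadac, Chga, Rpgrip1, Cyp2e1, Abhd2, Pcca, Slc39a1, Arg2 and Sis. Aadac, Chga, Cyp2e1, Arg2 and Sis stood as high or higher in the 425 barcodes with intermediate Defa24 and under 3 Sox17 and Msx1 UMIs. There Chga stood at 98.2 CPM, Arg2 at 64.1 and Sis at 62.1, against 83.1, 27.5 and 37.6 in the members. Ghrl, Rpgrip1, Abhd2, Pcca and Slc39a1 stood lower there, with Ghrl at 55.2 CPM and Rpgrip1 at 43.0. Ghrl (chr6:113716119-113719880, minus strand) gave 957 UMIs, or 399 CPM (375 to 425), in the members. It stood at 12.9 CPM (12.3 to 13.6) in the adenoma group and 6.78 (4.58 to 9.68) in the high-Defa24 group, log2 ratios of 4.95 and 5.88. The position of Ghrl held under every scaling, with log2 ratios over the high-Defa24 group of 4.73 without the Paneth genes and 4.35 with TMM factors.

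Chga, chromogranin A of endocrine granules, stood at 83.1 CPM (71.9 to 95.4), against 27.0 and 10.6. Rpgrip1, a ciliary protein, stood at 65.1 CPM (55.3 to 76.2), against 23.1 and 10.4. Abhd2, a lipid hydrolase, stood at 240 CPM, against 86.4 and 40.7, and Actb, β-actin, at 6685 CPM, against 3120 and 932. Chga, Rpgrip1, Abhd2, Pcca and Slc39a1 also remained above both groups without the Paneth genes in the total and with TMM factors. Aadac, Cyp2e1, Arg2 and Sis did not under either, and their counts were low, with 48 UMIs each for Aadac and Cyp2e1. Of the 89 genes, 49 were among the 70 found without the Paneth genes and 24 among the 27 found with TMM factors. The 1 gene below both was Wfdc18, at 14.6 CPM (10.2 to 20.3), against 25.6 and 31.9.

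Ghrl divided the members into nearly equal sets. Of the 219, 103 had 2 or more Ghrl UMIs, 107 had 0 and 9 had 1. In the 103 the number of Ghrl UMIs per barcode ran from 2 to 101 with a median of 6, and Ghrl stood at 832 CPM (780 to 887). With every barcode thinned to 5000 UMIs, Ghrl was detected in 44.2% of 206 members (37.3 to 51.2), with 13 shallower members left out, and in 51.1% without thinning. The thinned share was 2.52% in the adenoma group, 3.27% in the high-Defa24 group and 2.32% of 691 enterocyte barcodes, which do not make ghrelin. The split at Ghrl was chosen after these values had been seen, and Ghrl itself is no finding between the sets.

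**Figure D3:**
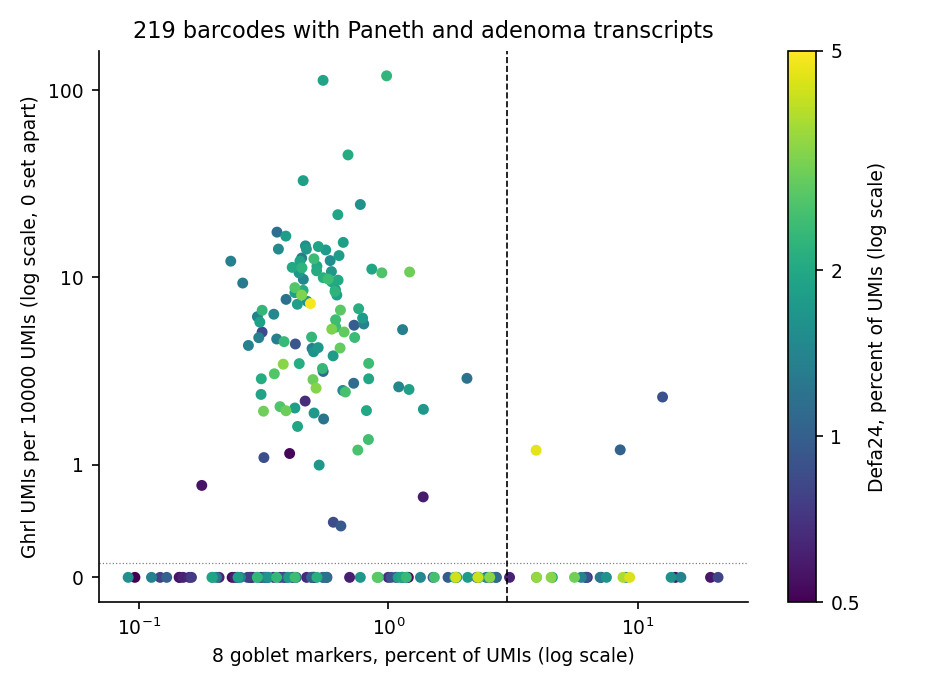
Each point is 1 of the 219 members, with the share of UMIs from 8 goblet markers (x axis, percent, log scale), Ghrl UMIs per 10000 UMIs (y axis, log scale, with 0 set apart below the dotted line) and the share of UMIs from Defa24 (colour, log scale). The dashed line marks 3% goblet marker UMIs. To its right lay 24 members, 1 of them with 2 or more Ghrl UMIs.

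On the measures below, the members with Ghrl varied less among themselves than those without. Defa24 took a median of 1.87% of their UMIs (quartiles 1.52 and 2.31), against 1.01% (0.666 and 1.72) in members with 0 Ghrl UMIs. Lyz1 took 0.221% (0.167 and 0.264), against 0.106% (0.0469 and 0.413). Goblet markers took 0.515% (0.421 and 0.649), against 0.698% (0.318 and 2.39). S100g gave a median of 41 UMIs (33 and 57), against 10 (4 and 23). The quartiles of the Ghrl set lay close together for each measure, while those of the other set spanned several-fold ranges. Median depth was alike, at 9992 and 10323 UMIs. Top doublet scores were held by 4 of 103 members with Ghrl (3.88%, 1.07 to 9.65) and by 38 of 107 without (35.5%, 26.5 to 45.4), against 16.9% of the adenoma group.

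Between the sets 99 of 5664 genes (1.75%) were over 2-fold higher with Ghrl and 143 (2.52%) over 2-fold lower, and the median over all genes was 0.01. Of 25 Paneth genes at 20 CPM or more, 10 were higher and 4 lower. AY761184 stood at 3196 CPM (3093 to 3302) with Ghrl and 711 (663 to 762) without. Gm14851 stood at 2057 and 522 CPM, Gm15284 at 4370 and 1546, and Defa26 at 176 and 51.5. The other subfamily went the opposite way: Defa21 stood at 643 CPM with Ghrl and 1184 without, and Defa22 at 395 (359 to 433) and 1057 (998 to 1118). Lyz1 stood at 2230 and 4161 CPM, and Mmp7 at 282 (252 to 314) and 1032 (974 to 1093). Ang4 stood at 579 and 803 CPM, and Itln1 at 1005 and 938. The Paneth genes thus did not differ by 1 common factor between the sets.

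The 8 goblet markers were all over 2-fold lower with Ghrl, with a median of -2.37. Tff3 stood at 1455 CPM with Ghrl and 7791 without, Muc2 at 227 and 1031, Zg16 at 750 and 3734, Clca1, a secreted mucus protein, at 46.5 and 293, and Fcgbp, a mucus protein, at 275 and 1826. Guca2a, the guanylin precursor, stood at 129 (109 to 152) and 1385 CPM, and the chemokine gene Ccl6 at 60.6 and 469. Of 8 secretory regulators, Creb3l1, Spdef, Atoh1 and Xbp1 (4 of 8) were 2-fold lower with Ghrl. Creb3l1 stood at 8.78 CPM (4.21 to 16.1) and 72.5, Spdef at 5.27 (1.93 to 11.5) and 39.3, and Atoh1 at 12.3 (6.72 to 20.6) and 28.0. Against the adenoma group, 1 of 5 regulators at 20 CPM or more was 2-fold higher in the set with Ghrl, and the list median was 0.06. In the set with Ghrl these levels rested on 6 to 14 UMIs each, and those of Spdef and Creb3l1 were close to the adenoma group (4.58 and 7.94 CPM). Wnt3 stood at 3.51 CPM (0.957 to 8.99) with Ghrl and 21.0 without.

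Among the other genes higher with Ghrl, Afp and Apoa2 encode plasma proteins. Afp, alpha-fetoprotein, stood at 33.4 CPM (23.6 to 45.8) with Ghrl and 1.75 (0.212 to 6.31) without, and at 4.15 in the adenoma group. Apoa2, an apolipoprotein, stood at 95.7 (78.6 to 115) and 21.0 CPM, and at 38.8 in the adenoma group. Rpgrip1 stood at 104 (86.6 to 125) and 29.7 CPM, and 23.1 in the adenoma group. Without the members of 2 or more Ghrl UMIs its log2 ratio over the adenoma group was 0.35. Actb stood at 8652 and 4864 CPM. S100g stood at 4462 (4341 to 4587) and 2601 CPM, the former close to the 4806 of the adenoma group.

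Cell cycle transcripts were higher with Ghrl: 14 of 20 genes had intervals above 0, 2 were over 2-fold, and the median was 0.50. Mki67 stood at 88.7 CPM (72.2 to 108) with Ghrl and 54.2 (41.5 to 69.4) without. Top2a, a topoisomerase of dividing cells, stood at 202 and 156 CPM. At 5000 UMIs, Top2a was detected in 60.2% of the members with Ghrl (50.1 to 69.7) and 33.0% of those without (23.6 to 43.4). The summed cell cycle list stood at 2366 CPM with Ghrl, as in the adenoma group (2366), and at 1724 without.

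**Figure D4:**
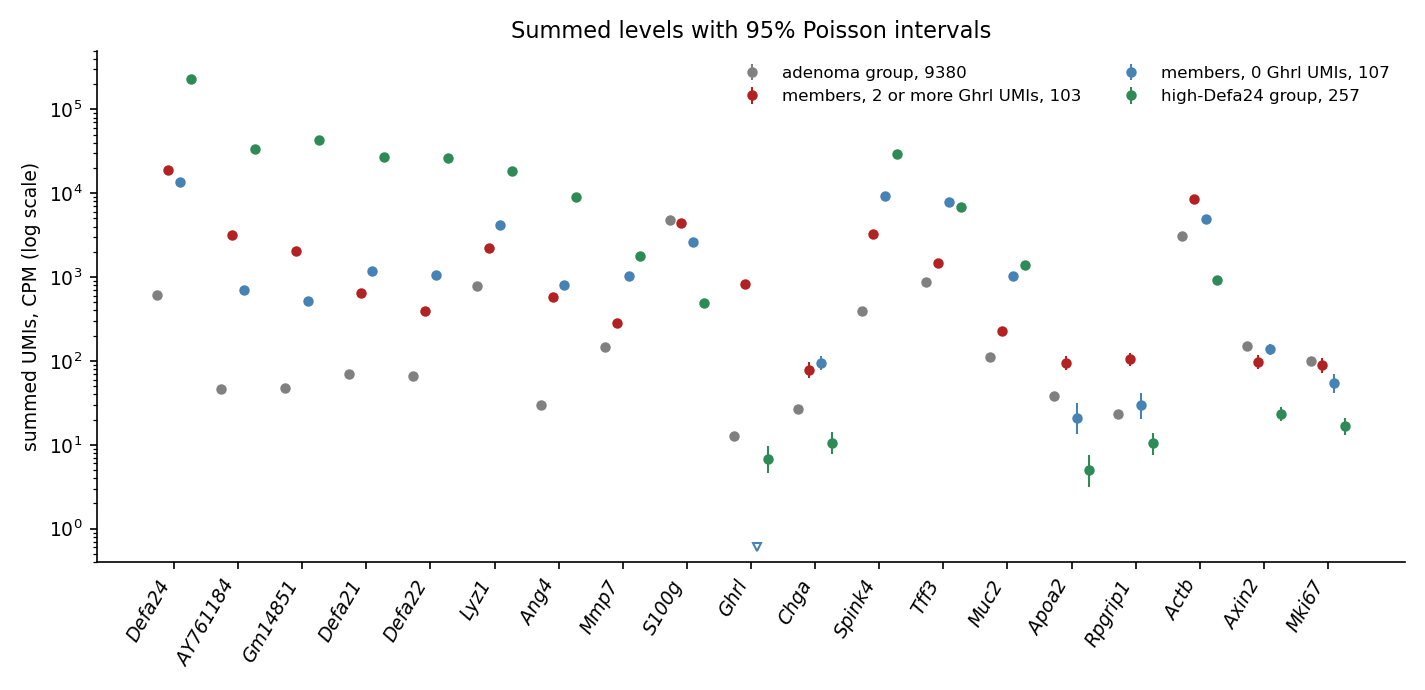
Summed level (y axis, CPM, log scale) of 19 genes (x axis) in the adenoma group, the members with 2 or more Ghrl UMIs, the members with 0 Ghrl UMIs and the high-Defa24 group; bars are exact 95% Poisson intervals and open triangles mark 0 UMIs. AY761184 was higher and Defa22, Tff3 and Muc2 were lower in members with Ghrl than in those without.

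The endocrine transcripts of the members with Ghrl were set beside those of endocrine barcodes. Chga stood at 79.0 CPM (63.5 to 97.1) with Ghrl and 95.2 (78.2 to 115) without, and Chgb, the second chromogranin, at 89.6 and 163. At 5000 UMIs Chga was detected in 34.0% of members with Ghrl (24.9 to 44.0) and 8.51% of those without (3.75 to 16.1), so it was spread over more barcodes in the former. Neurod1, an endocrine transcription factor, gave 0 UMIs with Ghrl (upper limit 3.24 CPM) and 14.8 CPM without. Per barcode, the enteroendocrine markers summed to a median of 142 CPM with Ghrl (highest 2663) and 62.5 without (highest 39229). The summed endocrine levels without Ghrl may therefore rest on few barcodes, which their intervals do not show. In the 39 LApcL endocrine barcodes with 2 or more Ghrl UMIs, low Defa24 and under 3 Sox17 and Msx1 UMIs, Ghrl stood at 24964 CPM, Chga at 820, Chgb at 2826 and Neurod1 at 366. Of the 103, 3 (2.91%, 0.605 to 8.28) fell in the enteroendocrine class. That class was cut at 10 or more summed UMIs of Chga, Chgb, Scg2 and Scg5. Its Chga and Chgb levels and the count of 3 follow from the cut, of which Neurod1 was no part.

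The ratios among defensins in the members were set beside those in barcodes with little Defa24. The number of AY761184 UMIs per 100 Defa24 UMIs was 7.27 (6.53 to 8.06) in 870 enterocyte barcodes with Defa24 below 0.5% and 8.14 (7.89 to 8.40) in 7995 adenoma barcodes with Defa24 below 0.1%. It was 14.6 in the high-Defa24 group, 17.0 in members with Ghrl and 5.28 in members without. For Defa22 the same ratios were 11.6, 11.4, 11.4, 2.11 and 7.84. The first 3 were alike for Defa22, and the members with Ghrl had the lowest of the 5. For Gm15284 they were 34.5, 36.1, 43.1, 23.3 and 11.5. In 255 goblet barcodes with intermediate Defa24 the ratios were 1.48 for AY761184, 1.28 for Defa22 and 4.06 for Gm15284. Lyz1 gave 11.9 UMIs per 100 Defa24 UMIs with Ghrl, 30.9 without and 8.09 in the high-Defa24 group. For AY761184 and Defa22 the intervals of the members, with or without Ghrl, did not overlap those of either set of barcodes with little Defa24. Defa24, the divisor, was also the gene by which these sets were cut, so the ratios move with that choice. For AY761184 the members with Ghrl lay above those sets and the members without lay below. For Defa17 the ratio was 5.04 (4.74 to 5.36) with Ghrl and 5.29 (4.92 to 5.67) without. Both intervals held the 5.22 of the enterocyte barcodes, and neither held the 5.78 (5.57 to 6.00) of the adenoma barcodes with Defa24 below 0.1%. The part of free RNA in the defensin counts of the members was not tested.

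**Figure D5:**
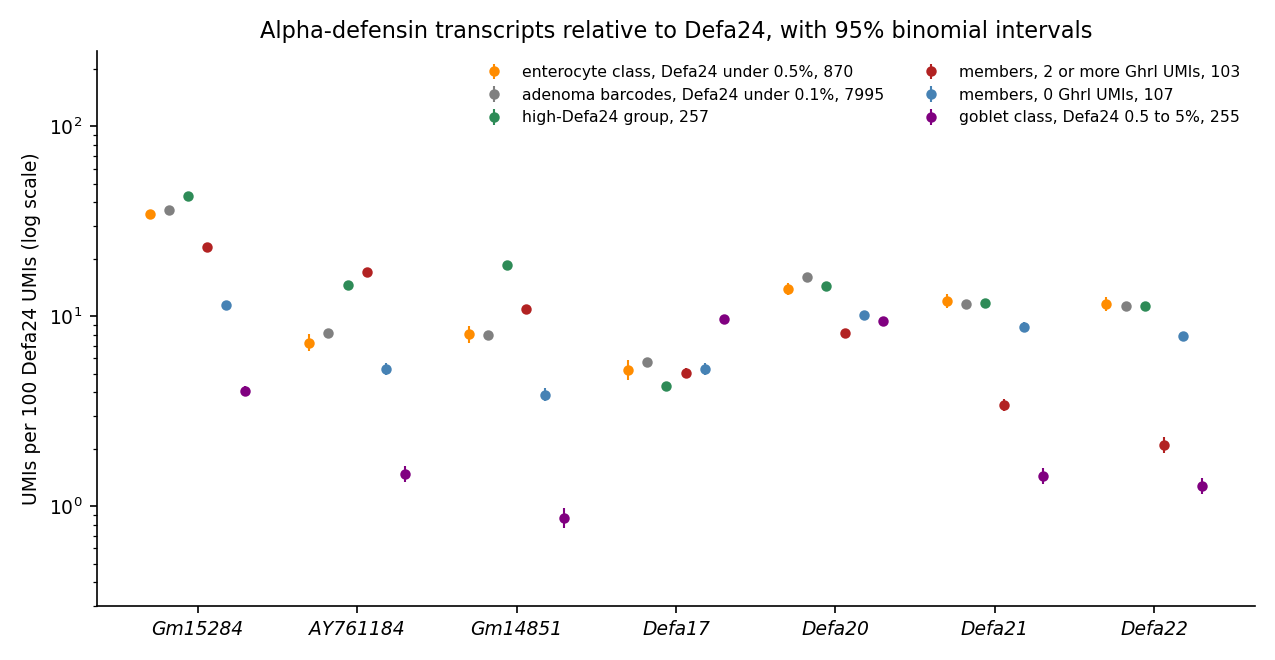
UMIs of 7 alpha-defensin genes per 100 Defa24 UMIs (y axis, log scale) in 6 sets of LApcL barcodes, with exact 95% binomial intervals. Enterocyte barcodes, adenoma barcodes with little Defa24 and the high-Defa24 group had Defa22 at 11.6, 11.4 and 11.4, and the members with Ghrl had it at 2.11.

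By Defa24 share, the members with Ghrl lay mostly above 1%. From 0.5% to under 1% there were 64 members, 6 with 2 or more Ghrl UMIs, and Ghrl stood at 50.9 CPM (36.0 to 69.9). From 1% to under 2% there were 95, of which 57 had Ghrl (575 CPM), and from 2% to under 5% there were 60, of which 40 had Ghrl (525 CPM). AY761184 stood at 512, 1969 and 3615 CPM over these ranges, while Defa22 stood at 544, 807 and 706. Lyz1 stood at 2859, 3095 and 3918 CPM and Tff3 at 5925, 3876 and 4168. Chga stood at 134, 65.2 and 50.8 CPM, and Mki67 at 56.3 (40.6 to 76.1), 73.7 and 84.6. Without the highest doublet scores Tff3 stood at 6996, 1542 and 3220 CPM, Lyz1 in the lowest range at 1770 and Chga there at 241 CPM. With or without them the lowest range held fewest of the Ghrl set and the most Chga and Tff3. Chga had a UMI in 22 of the 107 members with 0 Ghrl UMIs, so its level in that range may rest on few barcodes.

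Ghrl with intermediate Defa24 also occurred below the Sox17 and Msx1 limit. Of 237 LApcL barcodes with 2 or more Ghrl UMIs, 103 were members, 38 belonged to the adenoma group, 3 to the high-Defa24 group and 20 to barcodes of intermediate Defa24 with under 3 Sox17 and Msx1 UMIs. In those 20, whose median depth was 7615.5 UMIs, Ghrl stood at 906 CPM, AY761184 at 3167, Defa22 at 426, Lyz1 at 2268, S100g at 3757 and Rpgrip1 at 109. These levels lie near those of the members with Ghrl, with Tff3 higher at 5356 CPM. In the 24 adenoma group barcodes with Ghrl outside the enteroendocrine class, Ghrl stood at 269 CPM, AY761184 at 55.0 (32.6 to 86.9) and Rpgrip1 at 9.16 (1.89 to 26.8). Those levels of AY761184 and Rpgrip1 were near or below the whole adenoma group's 46.5 and 23.1 CPM.

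In the other libraries the rule found few barcodes. In LApc, 3 of 513 barcodes with adenoma transcripts (0.585%, 0.121 to 1.70) met it, and 0 of them had 2 or more Ghrl UMIs. In WT, 0 of 11391 kept barcodes did (upper limit 0.0324%), and 1 barcode in all had 3 or more Sox17 and Msx1 UMIs, so the WT library offered next to none to count. The LApcL share of 2.27% lay above the interval of the LApc share, but it compares 2 libraries of different days, and genotype, day and mouse cannot be told apart. With each barcode thinned to 5000 UMIs the rule found 131 of 5883 in LApcL (2.23%, 1.87 to 2.64) and 2 of 290 in LApc (0.690%, 0.0836 to 2.47), and these intervals overlapped. There the Sox17 and Msx1 limit was applied to the thinned counts. With that limit on the full counts and Defa24 alone thinned, the shares were 220 of 9456 (2.33%, 2.03 to 2.65) and 3 of 474 (0.633%, 0.131 to 1.84), which did not overlap. In the enterocyte class the share with intermediate Defa24 was 5.94% in LApc and 15.0% in WT, at median depths of 5318 and 9186.5 UMIs, against 2.21% in LApcL. Thinned, it was 1.75% (1.17 to 2.52) in LApc and 2.14% (1.25 to 3.41) in LApcL, which overlapped, and the WT class was not thinned. Of barcodes with intermediate Defa24, 21 of 551 in LApc, 95 of 1940 in WT and 123 of 644 in LApcL had 2 or more Ghrl UMIs. Over the whole libraries, Ghrl barcodes numbered 235, 463 and 237, beside 10864, 11391 and 16972 kept barcodes. In the 21 LApc and 95 WT barcodes Ghrl stood at 4070 and 10074 CPM, Chgb at 1517 and 945, S100g at 284 and 213, and AY761184 at 765 and 792. Chgb was higher and S100g lower than in the LApcL members with Ghrl, and 0 WT barcodes among the 95 had a Sox17 or Msx1 UMI.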

How the data were processed

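EpCAM-sorted small intestinal cells of 1 WT, 1 LApc and 1 LApcL mouse were run on droplet 3′ RNA sequencing. The authors deposited filtered UMI counts per gene and barcode, made with Cell Ranger 2.1.1 on mm10 (GRCm38) per the submitters' processing notes. The kit version of each library and any background RNA removal are not given in the sources used here. Kept barcodes had 500 or more genes and at most 20% mitochondrial UMIs. The study's own filter, which trims 1% of barcodes at each end of the gene count, was run as an alternative. Total deposited depth was 79696291 to 191509615 UMIs a library, and a kept LApcL barcode had a median of 10478.5 UMIs. The members, the gene lists and the choice of tests were made with earlier results of these data known.

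Raw counts were summed over the barcodes of each group and expressed as CPM. Ratios have exact conditional binomial intervals, levels exact Poisson intervals and shares Clopper-Pearson intervals, all at 95%. A gene was counted as different when it had 20 CPM or more in either group, a ratio over 2-fold and an interval excluding no difference. For genes beyond both groups the ratio was 1.5-fold. Barcodes of 1 mouse are not replicates, so no p-value was computed. Named genes were the 6 markers, the genes with the most UMIs in each list, the 10 highest and 10 lowest ratios of each comparison, the 10 farthest beyond both groups, and Lef1 and Apc. Other genes, including those of the Ghrl split, were named after their values had been seen. Some genes that the rule names are not reported here. Doublet scores came from Scrublet in scanpy 1.11.5, with an expected rate of 0.8% per 1000 barcodes, and TMM factors from edgeR 4.0.16. No model was fitted with edgeR. The ratio procedure was tested on simulated data. Coordinates and coding sequences are from GENCODE vM21 on GRCm38, matched by gene ID. Alternatives changed the barcode filters, the member thresholds, doublet removal, scaling, thinning and the CPM minimum.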

Additional observations from a re-analysis of the deposited data

How the results depend on the processing

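Of the alternatives to the values that answer a comparison, 84 kept the value and 34 moved it, and none reversed one. The count of members (219) fell to 141 with 5 or more Sox17 and Msx1 UMIs. Genes lower than in the adenoma group (11) numbered 17 with Defa24 from 1%, 21 without the highest doublet scores, 5 with TMM factors, 35 after thinning, 152 with no filter, 3 at 50 CPM and 31 without the members of 2 or more Ghrl UMIs, a set chosen after seeing the data. Genes higher than in the adenoma group (101) numbered 408 with no filter and 63 at 50 CPM. Against the high-Defa24 group, higher genes (4624) numbered 804 without Paneth, ribosomal protein and mitochondrial genes in the total, 95 with TMM, 2890 by the mean of CPM per barcode, 8331 with no filter and 2313 at 50 CPM. Lower genes (53) numbered 280, 348 and 95 under these 3 scalings, 101 after thinning and 91 with no filter. Genes above both groups (89) numbered 27 with TMM, 265 with no filter, 39 at 50 CPM and 149 without the Ghrl members. Genes below both (1) numbered 7, 8 and 2 under the 3 scalings and 0 at 50 CPM. The median position of genes higher in the high-Defa24 group (8.25%) was 17.1%, 12.7% and 15.5% under the 3 scalings and 14.8% after thinning, and that of genes higher in the adenoma group (16.2%) was 28.0% without the Paneth genes and 5.45% with TMM. A filter changes the number of genes tested; the cause of the other shifts was not tested. For single genes and lists, 286 alternatives kept the value, 7 were weaker and 6 stronger.

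No paired analysis was possible because each genotype was 1 library, and for the same reason no replicate could be left out. Depth limits the regulators, Wnt3 and Lef1, which rest on few UMIs. The removal of high-Defa24 barcodes with 3 or more Sox17 and Msx1 UMIs, also chosen after seeing the data, left 86 of the 89 genes above both groups.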
